A study of Mus musculus with 8 samples.

Results

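Autotaxin, the secreted enzyme encoded by *Enpp2*, and the receptors and phosphatases of its product lysophosphatidic acid (LPA) were followed through RNA-seq of cultured B16F10 cells, a mouse melanoma line. The genes were taken by symbol: *Enpp2*, the receptor genes *Lpar1*, *Lpar2*, *Lpar3*, *Lpar4* and *Lpar6*, and the phosphatase genes *Plpp1*, *Plpp2* and *Plpp3*, which are 9 of the 55414 genes in the expression table. They were chosen because *Enpp2* had the largest decrease of any protein-coding gene in CypD knockout cells, so the comparison of CypD KO with WT is described for them without a test. The 8 libraries formed 4 groups of 2, all harvested after 24 h. WT cells were unmodified B16F10 cells at 21% oxygen, and CypD KO cells, also at 21% oxygen, came from puromycin-selected clones in which Cas9 had been directed to *Ppif*, the gene of the mitochondrial regulator cyclophilin D (CypD). Control cells carried pcDNA without an insert and CypD OE cells carried pcDNA-CypD, both as G418-resistant stable lines at 1% oxygen. How many clones were sequenced is not given in the sources used here, and neither is whether the libraries of a group came from separate cultures, so the spread between them may be technical. Oxygen and vector both differ between Control and WT, and their parts in any difference between these groups cannot be told apart.

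Autotaxin is a secreted lysophospholipase D that removes choline from lysophosphatidylcholine outside the cell and so produces LPA, a signaling lipid. LPA acts through G-protein-coupled receptors, of which *Lpar1*, *Lpar2* and *Lpar3* belong to the EDG family and *Lpar4*, *Lpar5* and *Lpar6* to a family related to the P2Y purinergic receptors. The *Plpp* genes encode membrane lipid phosphatases that dephosphorylate LPA and related lipids and thereby end the signal. Autotaxin was first purified as a motility-stimulating factor from medium of human melanoma cells.

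Values are TPM, the relative abundance of transcripts per unit length, so levels of different genes may be compared on this scale. Differences were computed on log2(TPM + 1), which understates changes of weakly expressed genes, and tested with limma over the 13526 genes that reached 1 TPM in 2 or more libraries. With 2 libraries a group, permuting them exactly could not take a two-sided p under 0.333, so the limma p-values rest on a spread shared by all 4 groups. A fragment on 1000 effective bases was worth 0.082 to 0.097 TPM, and 17942 to 19692 genes were above 0 per library. *Ppif* was 11.3 TPM in CypD KO and 50.3 TPM in WT, but only 1.15-fold higher in the libraries labelled CypD OE than in Control (limma adjusted p = 0.0794), so each direction given for the libraries labelled CypD OE rests on their label. The 8 melanocyte markers examined were all present in every group, with summed levels of 12789 to 21385 TPM, whereas *Adgre1* of macrophages and *Dcn* and *Thy1* of fibroblasts were listed at 0 throughout. The summed macrophage list was 24.1 to 25.2 TPM in CypD KO and at most 4.90 TPM elsewhere, nearly all of it *Cd68*, and the summed fibroblast list was 34.0 to 36.9 TPM in CypD KO and at most 21.0 TPM elsewhere. Most of the fibroblast sum in CypD KO was *Postn*, at 34.8 and 31.2 TPM, whereas *Col1a2* of the same list fell from 7.95 TPM in WT to 1.63 TPM (log2 difference -1.79, limma adjusted p = 0.00176). The part of these lists in any difference was not tested. In bulk RNA, fewer expressing cells and less RNA per cell cannot be told apart.

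*Enpp2* (ENSMUSG00000022425) lies on the minus strand of chromosome 15, 54701324 to 54816288 of GRCm39, and overlaps the noncoding gene *Gm26684* on the other strand. It reached 96.6 and 101 TPM in WT, only 3.35 and 3.63 TPM in CypD KO, 100.2 and 103 TPM in Control and 61.9 and 58.9 TPM in the pair of libraries labelled CypD OE. WT and Control libraries overlapped at the top of this order, both libraries labelled CypD OE were below all 4 of them, and both CypD KO libraries were far below the rest. The CypD KO mean was 3.49 ± 0.198 TPM (SD, n = 2) against 98.9 ± 3.2 TPM (SD, n = 2) in WT, a level 28.3-fold lower and a log2 difference of -4.48. This is the value by which the genes were chosen. Among protein-coding genes, the next largest decrease was that of *Rhox5*, with a log2 difference of -4.15. In rank by TPM among all genes of a library, *Enpp2* was at 1681 and 1604 in WT and at 10770 and 10619 in CypD KO.

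Earlier results of these data were known when the genes were chosen. The rule of choice did not use the comparison of the libraries labelled CypD OE with Control. Of the 5 genes that passed the filter, *Enpp2* was lower, *Plpp2* was higher and *Lpar6*, *Plpp1* and *Plpp3* did not pass the threshold. The background of this comparison was high: 18.3% of all tested genes were called lower and 19.0% higher, so 1 call in each direction among 5 is near what all genes show. *Enpp2* fell from 101 TPM in Control to 60.4 TPM, or 59.5% of Control, a log2 difference of -0.74 (standard error 0.06, limma adjusted p = 0.000132, 95% interval -0.87 to -0.61). The decrease was larger than the spread between libraries, and 5.81% of tested genes had a larger one. The adjusted p of *Enpp2* ranged from 8.58e-05 to 0.00196 over the alternative settings, and leaving out any 1 library did not end the call. Most melanocyte markers were also lower in this comparison, 5 of 8, while *Sox10* was higher (log2 difference 0.20, limma adjusted p = 0.00241) and *Mlana* and *Tyr* did not pass the threshold. Their summed level, over which *Tyrp1* weighs most, was 20827 to 21385 TPM in Control and 13775 to 13953 TPM in the pair of libraries labelled CypD OE, and the pigment cell regulator *Mitf* had a log2 difference of -0.93 (limma adjusted p = 1.86e-05). Their part in the lower *Enpp2* was not tested. *Mitf* in CypD KO (280 and 265 TPM) overlapped that in WT (277 and 281 TPM). Of the 8 melanocyte markers, 5 were lower in CypD KO and 2 were higher, against 18.4% and 30.1% of all tested genes in that comparison. *Tyr* was among the higher ones, at 157 TPM against 39.3 TPM in WT (log2 difference 1.97, limma adjusted p = 4.02e-06).

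**Figure D1:**
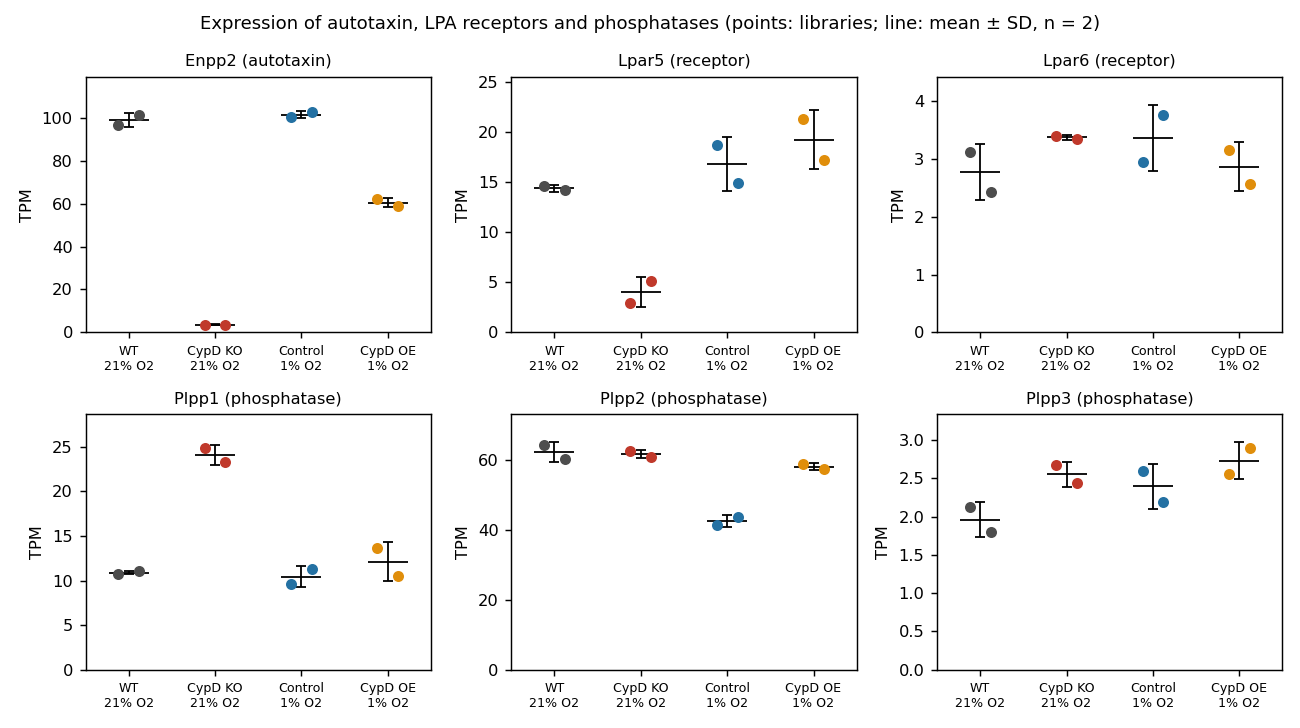
TPM (y axis, starting at 0) of autotaxin, 2 LPA receptors and 3 phosphatases in each of 4 groups (x axis). Points are libraries and lines are means with SD (n = 2). *Enpp2* is at 3.35 and 3.63 TPM in CypD KO and between 58.9 and 103 TPM elsewhere, *Lpar5* is lowest in CypD KO, *Plpp1* is highest there and *Plpp2* is lowest in Control.

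The genes around *Enpp2* did not share its level or its difference in CypD KO. Towards higher coordinates, *Taf2*, which encodes a subunit of the general transcription factor TFIID, starts 119.3 kb away and was 46.2 TPM in CypD KO and 51.3 TPM in WT (log2 difference -0.15, limma adjusted p = 0.107). *Dscc1*, a subunit of a clamp loader used at replication forks, had a log2 difference of -0.26 in CypD KO (limma adjusted p = 0.136). *Deptor*, an inhibitor of mTOR, fell from 37.9 to 28.3 TPM (log2 difference -0.41, limma adjusted p = 0.000505). On the other side *Ccn3*, a matricellular protein gene, was at 0.21 TPM in WT and 4.70 TPM in CypD KO (log2 difference 2.24). It reached 1 TPM only in the CypD KO libraries and passed the filter through them, so it is given without a test. *Mal2* and *Colec10* did not exceed 0.04 TPM in any library. In the comparison of the libraries labelled CypD OE with Control, 18.3% of all tested genes were called lower. Of these neighbours, *Deptor* was lower in the libraries labelled CypD OE (log2 difference -0.62, limma adjusted p = 0.000136), as was *Dscc1* (log2 difference -0.68, limma adjusted p = 0.00664). *Taf2* was at 45.3 and 47.0 TPM there against 55.4 and 49.5 TPM in Control (limma adjusted p = 0.0735).

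**Figure D2:**
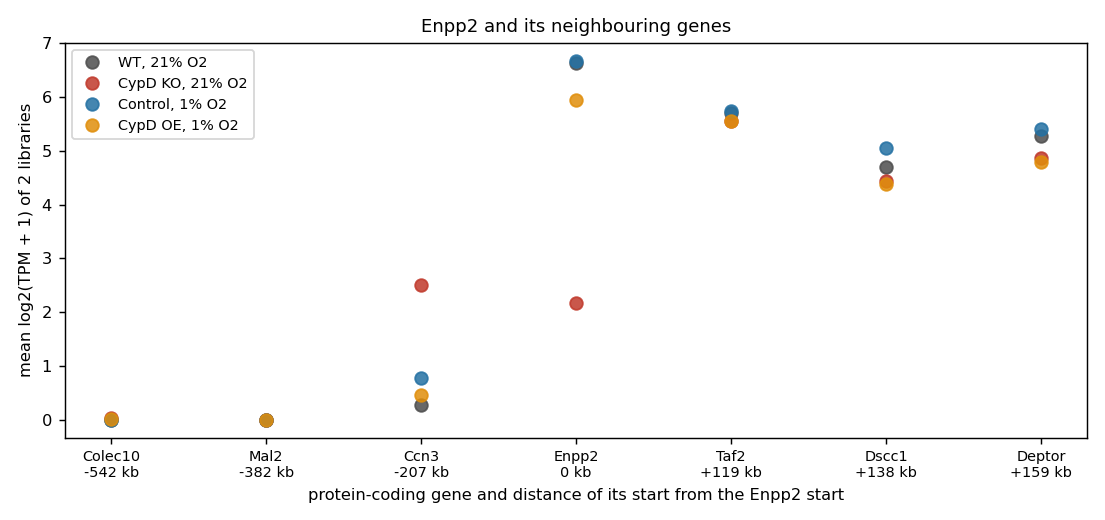
Mean log2(TPM + 1) of 2 libraries (y axis) for *Enpp2* and the 3 nearest protein-coding genes on each side (x axis), with the distance of each gene's start from the *Enpp2* start, positive towards higher coordinates. Of the 7 genes, *Enpp2* has the widest spread between groups; *Ccn3* is highest in CypD KO, where *Enpp2* is lowest.

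The 5 genes whose pattern over the 8 libraries was most like that of *Enpp2*, by Pearson's r of log2(TPM + 1) among 817 genes that varied by at least 2 on this scale, were *Ccdc85c* (r = 0.9985), *Gimap9* (r = 0.9917), *Gm15128* (r = 0.9885), *Gpm6a* (r = 0.9885) and *Epha3* (r = 0.9869). These values describe 4 groups of libraries more than 8 independent points, and they follow largely from the gap between CypD KO and the rest. *Gpm6a*, a neuronal membrane glycoprotein gene, had 41.3 and 39.6 TPM in WT, 6.64 and 6.03 TPM in CypD KO, 45.1 and 43.4 TPM in Control and 25.6 and 23.9 TPM in the pair of libraries labelled CypD OE. Like *Enpp2*, it was lower in both of the latter libraries than in all WT and Control libraries. The ephrin receptor gene *Epha3* had 65.0 and 62.9 TPM in WT against 15.3 and 15.5 TPM in CypD KO, but it was higher in Control (85.1 and 87.6 TPM) than in WT, which *Enpp2* was not.

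**Figure D3:**
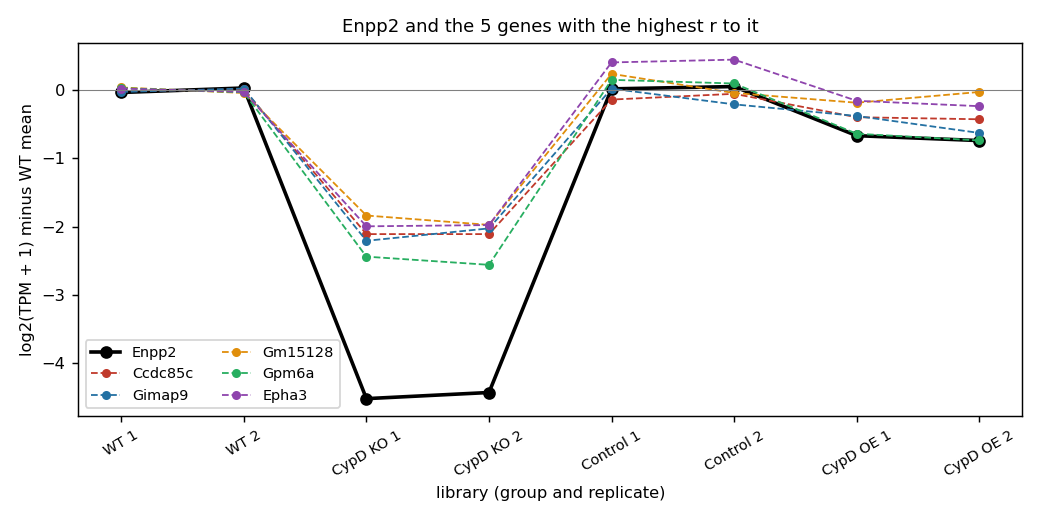
Difference of log2(TPM + 1) from the WT mean (y axis) in each of 8 libraries (x axis) for *Enpp2* (black) and the 5 genes with the highest Pearson's r to it. All 6 are lowest in CypD KO, where *Enpp2* falls furthest; both libraries labelled CypD OE lie below both Control libraries for all but *Gm15128*.

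Of the LPA receptor genes chosen by symbol, *Lpar6* had the highest level. *Lpar6* (ENSMUSG00000033446; chromosome 14, 73475335 to 73480734, plus strand of GRCm39) had 3.12 and 2.43 TPM in WT, 3.4 and 3.34 TPM in CypD KO, 2.95 and 3.76 TPM in Control and 3.16 and 2.56 TPM in the pair of libraries labelled CypD OE. WT, Control and libraries labelled CypD OE overlapped, and both CypD KO libraries lay above WT and within the range of Control. The difference between the libraries labelled CypD OE and Control was -0.17 on the log2 scale (standard error 0.16, limma adjusted p = 0.453), with a 95% interval of -0.56 to 0.21. *Lpar6* lies within *Rb1*, the retinoblastoma gene, which is on the opposite strand. *Rb1* was at 20.0 TPM in CypD KO and 9.20 TPM in WT (log2 difference 1.05, limma adjusted p = 9.24e-05), and because the strand setting of the authors' counting is not given in the sources used here, reads of both genes may not have been told apart.

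*Lpar2* (ENSMUSG00000031861; chromosome 8, 70275079 to 70283752), an EDG family receptor, had 0.70 and 0.88 TPM in WT, 0.99 and 0.71 TPM in CypD KO, 0.60 and 0.75 TPM in Control and 0.97 and 1.06 TPM in the pair of libraries labelled CypD OE. Both of the last lay above both Control libraries, but *Lpar2* did not pass the filter and was not tested. The remaining EDG family genes were at the limit of detection. *Lpar1* (ENSMUSG00000038668; chromosome 4, 58435250 to 58554635) was listed at 0.03 TPM in each CypD KO library and at 0 in the other 6, and *Lpar3* (ENSMUSG00000036832; chromosome 3, 145926691 to 145991969) at 0.08 and 0.04 TPM in CypD KO and at 0 elsewhere. These values correspond to approximately 1.0 to 2.2 fragments, so no difference between groups was detectable at this depth. *Lpar4* (ENSMUSG00000049929; chromosome X, 105964206 to 105977506) was listed at 0.04 TPM in WT replicate 1 and at 0 in the other 7 libraries.

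The highest *Lpar* level in WT, Control and the libraries labelled CypD OE was that of *Lpar5*, which was not among the genes chosen by symbol but belongs to the same receptor family as *Lpar6*. *Lpar5* (ENSMUSG00000067714; chromosome 6, 125044883 to 125059435, plus strand) had 14.7 and 14.2 TPM in WT, 2.94 and 5.10 TPM in CypD KO, 18.7 and 14.9 TPM in Control and 21.3 and 17.2 TPM in the pair of libraries labelled CypD OE. Both CypD KO libraries were below the other 6, which overlapped between Control and the libraries labelled CypD OE, and in CypD KO replicate 1 *Lpar6* was above *Lpar5*. It was 3.59-fold lower in CypD KO than in WT, a log2 difference of -1.65 (standard error 0.22, limma adjusted p = 0.000935), and it remained past the threshold in every alternative, with adjusted p-values of 0.000616 to 0.0078. The difference between the libraries labelled CypD OE and Control was 0.19 (limma adjusted p = 0.543), with a 95% interval of -0.33 to 0.71. *Lpar5* made up 79.2% and 81.1% of the summed TPM of the 6 *Lpar* genes in the WT libraries but 39.5% and 55.3% in the CypD KO libraries. The sum of all 6 was 18.5 and 17.5 TPM in WT and 7.44 and 9.22 TPM in CypD KO, whereas the sum without *Lpar5* was 3.86 and 3.31 TPM in WT and 4.50 and 4.12 TPM in CypD KO. The receptor total was smaller in CypD KO, and the total without *Lpar5* was not. *Lpar5* overlaps the noncoding gene *Gm67933* on the opposite strand, with the same limit on strand as for *Lpar6*. Transcript starts of *Lpar5* are shown because this was the *Lpar* gene with a called change. RefSeq (GRCm38.p6, a different build from that of the expression table) gives 2 starts, and the 250 bases before each are printed 5′ to 3′ on the gene's plus strand, with matches to the core of the hypoxia response element in capitals. The letters searched were ACGTG and GCGTG on both strands, which are held by 38.6% of all 32851 RefSeq windows of this length.
Lpar5 start 1, chr6:125067670-125067919: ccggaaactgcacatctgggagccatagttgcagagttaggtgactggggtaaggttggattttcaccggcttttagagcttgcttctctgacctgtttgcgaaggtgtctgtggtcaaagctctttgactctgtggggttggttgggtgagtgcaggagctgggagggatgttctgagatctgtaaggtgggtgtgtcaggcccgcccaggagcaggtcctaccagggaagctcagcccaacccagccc
Lpar5 start 2, chr6:125071085-125071334: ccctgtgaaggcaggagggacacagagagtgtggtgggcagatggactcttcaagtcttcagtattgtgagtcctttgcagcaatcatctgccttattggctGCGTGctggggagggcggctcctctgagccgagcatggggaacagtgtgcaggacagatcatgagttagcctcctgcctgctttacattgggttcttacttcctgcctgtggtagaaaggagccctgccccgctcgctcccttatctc
The first window held no match and the second held 1, whose first base was 148 bases before the start. A match is a description of letters and not a binding site. The windows of *Lpar3*, *Lpar4* and *Lpar6* held no match, that of *Lpar2* held 6, and the 3 windows of *Lpar1* held 1, 2 and 0.

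The phosphatases differed in level and in pattern. *Plpp2* (ENSMUSG00000052151; chromosome 10, 79362264 to 79369631, minus strand), which encodes lipid phosphate phosphatase 2, was the most abundant in every library. It had 64.4 and 60.3 TPM in WT, 62.7 and 61.0 TPM in CypD KO, 41.5 and 43.9 TPM in Control and 59.0 and 57.5 TPM in the pair of libraries labelled CypD OE. WT and CypD KO overlapped, the libraries labelled CypD OE were just below them, and both Control libraries were well below the rest. Compared with Control, *Plpp2* was 1.36-fold as high where the label was CypD OE, a log2 difference of 0.44 (standard error 0.05, limma adjusted p = 0.000929, 95% interval 0.31 to 0.56). The adjusted p was between 0.000669 and 0.00857 in every alternative setting, and 12.7% of tested genes had a larger increase. The log2 difference of Control from WT was -0.53, or 0.685 of the WT level, and that of CypD KO from WT was -0.01; both comparisons use the WT libraries and are given without a test. The start of *Plpp2* is shown as that of the only one of the 3 genes *Plpp1*, *Plpp2* and *Plpp3* called between the groups at 1% oxygen, with the same letters in capitals, on the gene's minus strand.
Plpp2, chr10:79533788-79534037: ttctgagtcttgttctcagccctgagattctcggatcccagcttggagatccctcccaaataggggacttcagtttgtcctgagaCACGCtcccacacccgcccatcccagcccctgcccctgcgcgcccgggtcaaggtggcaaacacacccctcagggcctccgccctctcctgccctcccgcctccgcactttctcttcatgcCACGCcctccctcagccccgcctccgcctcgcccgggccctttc
It held 2 matches, whose first bases were 165 and 44 bases before the start. The window of *Plpp3* held none.

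*Plpp1* (ENSMUSG00000021759; chromosome 13, 112937278 to 113005534, plus strand), which encodes lipid phosphate phosphatase 1, had 10.8 and 11.0 TPM in WT, 24.9 and 23.3 TPM in CypD KO, 9.58 and 11.3 TPM in Control and 13.7 and 10.5 TPM in the pair of libraries labelled CypD OE. Both CypD KO libraries were above the other 6, which overlapped. The CypD KO mean was 2.21-fold that of WT, a log2 difference of 1.08 that is given without a test, and 6.91% of tested genes had a larger increase. In the libraries labelled CypD OE the difference from Control was 0.19 (standard error 0.13, limma adjusted p = 0.303), with a 95% interval of -0.12 to 0.50. *Plpp1* overlaps *Mtrex* on the opposite strand and *Plpp3* the noncoding gene *Gm29838*, with the same limit on strand. *Plpp3* (ENSMUSG00000028517; chromosome 4, 105014421 to 105089964, plus strand), which encodes lipid phosphate phosphatase 3, was low throughout, at 2.12 and 1.80 TPM in WT, 2.67 and 2.44 TPM in CypD KO, 2.60 and 2.19 TPM in Control and 2.56 and 2.90 TPM in the pair of libraries labelled CypD OE. Its groups lay close together, and the difference between the libraries labelled CypD OE and Control was 0.14 (standard error 0.14, limma adjusted p = 0.494, 95% interval -0.20 to 0.47). The balance of the phosphatases therefore differed between groups. The ratio of *Plpp2* to *Plpp1* was 5.99 and 5.46 in WT, 2.52 and 2.62 in CypD KO, 4.34 and 3.89 in Control and 4.31 and 5.45 in the libraries labelled CypD OE. It was lowest in both CypD KO libraries. The summed level of the 3 genes was 77.3 and 73.1 TPM in WT, 90.2 and 86.8 TPM in CypD KO, 53.7 and 57.4 TPM in Control and 75.2 and 70.9 TPM in the pair of libraries labelled CypD OE.

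**Figure D4:**
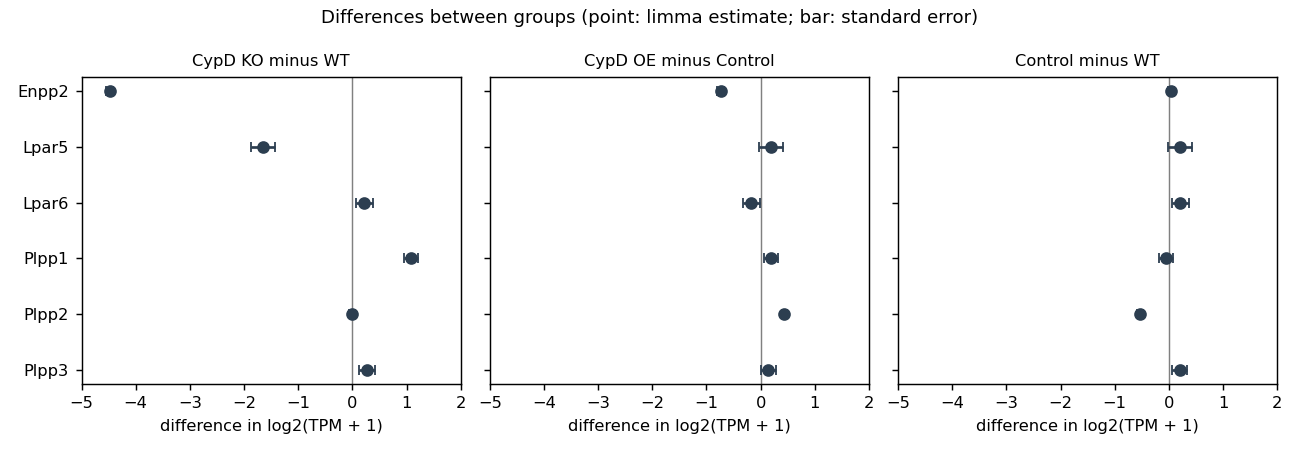
Difference in log2(TPM + 1) (x axis) of *Enpp2*, *Lpar5*, *Lpar6*, *Plpp1*, *Plpp2* and *Plpp3* (y axis) in 3 comparisons, as limma estimates with standard errors. In CypD KO *Enpp2* is at -4.48, *Lpar5* at -1.65 and *Plpp1* at 1.08; in the libraries labelled CypD OE *Enpp2* is at -0.74 and *Plpp2* at 0.44; in Control minus WT *Plpp2* is at -0.53.

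The surroundings of the pathway were described with 79 other genes in 8 lists, of which 58 passed the filter. In CypD KO, 27 of these were higher than in WT, 4 were lower and 27 did not pass the threshold, against 30.1% of all tested genes higher and 18.4% lower. Over all genes 4066 were higher and 2486 lower, and with median-of-ratios rescaling the higher ones were 3411 of 6561, so the excess of higher calls in this comparison depended on the scaling. The median log2 difference was 0.23 over the 58 genes and 0.09 over all tested genes. The list of other lipid phosphatases and related genes, among them *Plppr* and *Lpin* genes, gave 7 higher and 0 lower of 9 tested. *Lpin3*, among these 7, and *Gpat3*, among the 27 higher genes, reached 1 TPM only in CypD KO. They passed the filter through the libraries in which they were higher, which tilts these counts towards increases. *Acp6*, a mitochondrial phosphatase of lysophosphatidic acid on the same list, rose from 18.5 to 47.0 TPM (log2 difference 1.3, limma adjusted p = 5.34e-05). All 5 tested genes of sphingosine 1-phosphate metabolism and signaling, the related lysophospholipid system, were higher. *Sphk1*, which makes sphingosine 1-phosphate, measured 5.37 and 4.36 TPM in WT against 47.2 and 44.2 TPM in CypD KO (log2 difference 3.0, limma adjusted p = 6.23e-06). Of 14 genes that couple LPA receptors to the cytoskeleton, 9 were higher and 0 lower. The small GTPase genes *Rhob*, from 40.4 to 157 TPM (log2 difference 1.94, limma adjusted p = 1.1e-06), and *Rhoc*, from 78.5 to 236 TPM (log2 difference 1.58, limma adjusted p = 1.75e-06), rose most. Besides *Lpar5*, the genes that fell were *Gpam*, a glycerol-3-phosphate acyltransferase (log2 difference -0.44, limma adjusted p = 0.00414), *Lypla1*, a lysophospholipase (log2 difference -0.35, limma adjusted p = 0.00174), and *Agpat1*, which acylates LPA to phosphatidic acid (log2 difference -0.31, limma adjusted p = 0.00597).

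None of the tested relatives of *Enpp2* was called lower in CypD KO. *Enpp4*, an ectophosphodiesterase gene, rose from 9.27 to 17.7 TPM (log2 difference 0.86, limma adjusted p = 0.000325) and *Enpp5* from 18.8 to 41.1 TPM (log2 difference 1.09, limma adjusted p = 3.17e-05). *Enpp1*, which makes pyrophosphate from nucleotides, measured 1.19 and 1.04 TPM in WT against 0.81 and 0.83 TPM in CypD KO, and *Enpp3* 0.64 and 0.45 TPM against 0.44 and 0.27 TPM. For these weakly expressed genes both CypD KO libraries were below both WT libraries, but neither gene passed the threshold. *Enpp6* did not exceed 0.43 TPM in any library and *Enpp7* was listed at 0. *Gpr35*, a receptor for which LPA species have been proposed as ligands, rose from 0.69 to 2.88 TPM (log2 difference 1.20, limma adjusted p = 0.00165), so the receptor list held 1 rise and the fall of *Lpar5*. *P2ry10* was listed at 0 in every library and *P2ry10b* at 0.03 TPM in 1 CypD KO library.

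In the libraries labelled CypD OE, 15 of the 58 genes were higher than in Control, 10 were lower and 33 did not pass the threshold. Of all tested genes, 19.0% were higher and 18.3% lower. *Enpp1* rose from 0.46 to 2.25 TPM (log2 difference 1.15, limma adjusted p = 0.00182) and *Enpp3* from 0.395 to 1.21 TPM (log2 difference 0.66, limma adjusted p = 0.0274), while *Enpp5* fell from 24.6 to 19.6 TPM (log2 difference -0.32, limma adjusted p = 0.00973). *Enpp2* was thus lower while *Enpp1*, a weakly expressed gene of its family, was higher. *Enpp3* is counted among the 15 higher genes, which tilts that count towards increases, and its call was lost with a fit of the 4 libraries alone. *Gpr35* measured 1.71 and 1.86 TPM in Control against 0.31 and 0.20 TPM in the pair of libraries labelled CypD OE (log2 difference -1.15, limma adjusted p = 0.00291). *Sphk1* rose from 2.59 to 7.14 TPM (log2 difference 1.18, limma adjusted p = 0.000495). The falls of *Arhgef11*, a guanine nucleotide exchange factor gene (log2 difference -0.46, limma adjusted p = 0.00126), and *Gdpd1*, a lysophospholipase D gene (log2 difference -0.45, limma adjusted p = 0.00145), were next in size to that of *Gpr35*.

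Between Control and WT, which share libraries with the comparisons above, 12 of the 58 genes were higher and 5 lower, with 12.1% of all tested genes called in each direction. *Enpp2* differed by 0.04 on the log2 scale and *Plpp1* by -0.06, given without a test. *Lpcat2*, a lysophosphatidylcholine acyltransferase gene, was lower in Control (log2 difference -0.73, limma adjusted p = 0.000894), as was *Sphk1* (log2 difference -0.70, limma adjusted p = 0.00774). *Arhgef11* was higher (log2 difference 0.48, limma adjusted p = 0.00201), as was *Enpp5* (log2 difference 0.37, limma adjusted p = 0.0087). *Pnpla6* (0.95, limma adjusted p = 0.0336), *Gpr35* (0.73, limma adjusted p = 0.0281) and *Plppr2* (-0.54, limma adjusted p = 0.0234) were also called, but each lost the call in several settings, among them a fit of the 4 libraries alone and leaving out either Control replicate.

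**Figure D5:**
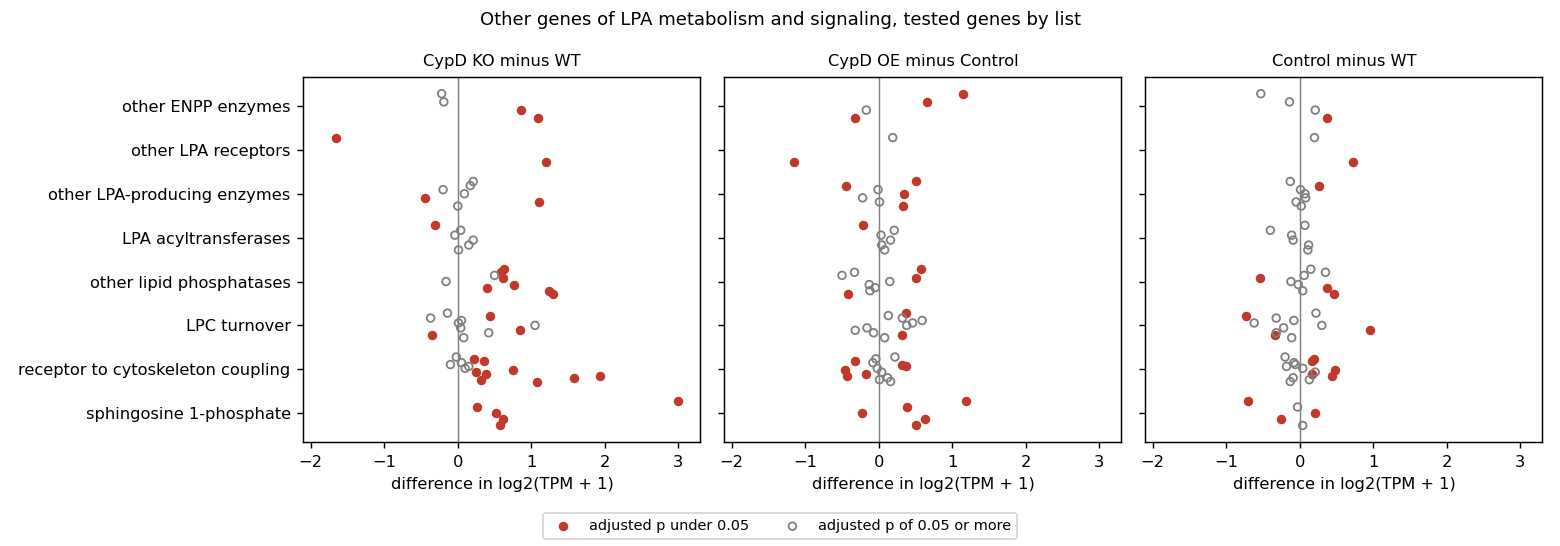
Difference in log2(TPM + 1) (x axis) of the 58 tested genes of 8 lists (y axis) in 3 comparisons. Each point is a gene, filled where the limma adjusted p was under 0.05. In CypD KO most filled points lie to the right, with *Lpar5* furthest left at -1.65 and *Sphk1* furthest right at 3.0.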

How the data were processed

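RNA from 8 libraries of B16F10 cells was sequenced in paired-end reads of 150 bases after ribosomal RNA depletion. According to the study's methods and the submitters' processing notes, reads were trimmed with Cutadapt 3.4, aligned to GRCm39 with STAR 2.7.8a and quantified with RSEM 1.3.1. What the authors deposited is TPM, with the same total in each library and 2 decimals. Read counts were not used here. RSEM divides reads shared by several genes, and TPM shifts when abundant transcripts change.

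From TPM, log2(TPM + 1) was computed for the 13526 genes that reached 1 TPM in 2 or more libraries. A mean per group was fitted with limma 3.58.1 in R 4.3.3 (eBayes with trend), with two-sided tests, Benjamini-Hochberg adjustment over these genes and a threshold of 0.05. The fit was tested on simulated data. Depth was estimated from the steps between low values, at a fragment length of 210 bases, with 83.8% to 86.7% of values within 0.15 of a whole fragment. Library groups came from the labels; 0 columns lacked a sample. Positions came from the GENCODE GRCm39 annotation, which held 98.8% of the gene identifiers, and promoter windows from RefSeq (GRCm38.p6), whose table had 7 of the 9 genes and *Lpar5* but not *Enpp2* or *Plpp1*. Python 3.11.15 was used for summaries.

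The genes and lists were chosen with earlier results of these data known. Those named are the 9 genes, the other ENPP and LPA receptor genes (1 is not reported here) and, per comparison, the 3 largest increases and 3 largest decreases among list genes past the threshold whose libraries did not overlap between groups, the 5 genes most like *Enpp2* and its 3 nearest protein-coding neighbours on each side. *Acp6*, *Agpat1*, *Rb1*, *Rhox5* and the markers with values were named after their values were seen. Alternatives were a pseudocount of 0.1, no filter or one of 5 TPM, median-of-ratios rescaling, a fit of the 4 libraries compared, a replicate block, eBayes without trend and leaving out each library.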

Additional observations from a re-analysis of the deposited data

How the results depend on the processing

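Of the tested results and alternatives, 391 kept direction and side of the threshold, 19 lost the call, 3 gained it and 0 changed direction. *Enpp2* and *Plpp2* in the libraries labelled CypD OE and *Lpar5* in CypD KO kept their calls under each alternative run. Leaving out 1 library at a time gave 3637 to 3859 called genes in the comparison of CypD OE with Control (5057 with all libraries), 4916 to 5417 for CypD KO with WT (6552) and 2016 to 2140 for Control with WT (3269). For the pathway lists this gave 8 to 12 higher genes in the libraries labelled CypD OE (15 with all libraries), the 8 without CypD OE replicate 1, and for Control minus WT 6 to 10 higher (12) and 3 to 4 lower (5). In Control minus WT, 7 list genes were higher with eBayes without trend, and 3 were lower with no filter on low TPM. The log2 difference of *Enpp2* in CypD KO was -4.79 with a pseudocount of 0.1. The cause of these changes was not tested, except that leaving out libraries also removes residual degrees of freedom. *Ppif* in the libraries labelled CypD OE passed the threshold in the fit of 4 libraries alone (adjusted p = 0.047).

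Same-numbered libraries had correlations of their deviations of -0.00175 for CypD OE with Control, 0.108 for CypD KO with WT and -0.0186 for Control with WT. Nothing in the labels pairs them, and whether they shared a batch was not tested. A replicate block gave 4735 called genes for CypD OE minus Control, 6285 for CypD KO minus WT and 2886 for Control minus WT. Genes of about 1 or 2 fragments, such as *Lpar1*, *Lpar3* and *Lpar4*, could not be compared at this depth.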
